A study of Homo sapiens with 16 samples.

Results

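The array described here held RNA of GIST T1 cells transfected with siRNA against RASSF8, and it was chosen by its label as 1 of the 16 arrays of the series. GIST T1 is a single human line of gastrointestinal stromal tumor (GIST) with an activating KIT mutation, so all arrays share that genotype and 1 cell background. Affymetrix Human Exon 1.0 ST arrays, on which probes lie along the exons of a gene, gave log2 expression values of 22011 transcript clusters. Of the other 15 arrays, 13 held RNA of cells with another gene silenced (IGF2R, IGFBP2, GTF21, the label's spelling for GTF2I, and the zinc finger genes ZNF708, ZNF665, ZNF528, ZNF431, ZNF429, ZNF254, ZNF100, ZNF91, ZNF85 and ZNF43), 1 array for each gene. The last 2 held RNA of cells transfected with siCON, a nonsilencing siRNA, for 24 h and for 72 h by their labels, although the study's text calls the earlier one 48 h. All siRNAs were used at 50 nM, and the sources used here give no harvest time for the knockdown arrays. The study silenced these genes because their knockdown made the cells more sensitive to imatinib, and the arrays asked which transcripts changed with each knockdown.

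RASSF8 belongs to the Ras association domain family, in which the classical members carry the domain near the C terminus and the N-terminal members, RASSF7 to RASSF10, carry it near the N terminus. In Drosophila the single RASSF8 protein acts with ASPP at adherens junctions, where the pair restrains Src through its inhibitory kinase Csk. Human RASSF8 is also found at cell junctions and binds ASPP proteins, which in turn bind protein phosphatase 1.

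With 1 RASSF8 array there was no replicate of the knockdown, and no p-value is given for any gene other than RASSF8 itself. Each value of the RASSF8 array was set against the mean of the 2 siCON arrays (a log2 difference) and against the full range of the other 15 arrays. The distance beyond that range is the gap between the RASSF8 array and the nearest of the other 15, and a margin of 0.5 or more was taken as well beyond it. The siCON arrays differed from each other by a pooled SD of 0.168 over all clusters, and 111 clusters lay lower and 53 higher by 1 or more on the siCON array labelled 72 h than on the one labelled 24 h. No source says whether they were separate cultures.

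RASSF8 was lower on its own knockdown array than on every other array. Its level was 7.0 on the RASSF8 array, against 7.48, 8.28 and 8.70 (lowest, median and highest) on the other 13 knockdown arrays and 8.30 and 8.39 on the siCON arrays. The log2 difference from the siCON mean was -1.34, so that 39.5% of the siCON level remained on this scale. The lowest of the other arrays was the one with IGFBP2 silenced, and the RASSF8 array lay 0.47 below it. Against the mean of the other 15 arrays, 8.26, the difference was -1.26, with an exact two-sided permutation p of 0.125 (the doubled tail over 16 choices of the array), which is the smallest that this design allows. A single cluster carried the symbol RASSF8, so no second measurement was at hand.

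Of the 9 family members measured, RASSF8 included, 3 lay below and 1 above every other array, where 6.66% and 7.42% of all clusters did. The silenced gene was 1 of the 3, and RASSF3 and RASSF5 were the others. RASSF3, a classical member, was at 8.29 on the RASSF8 array, against 8.37, 8.84 and 9.25 on the other knockdown arrays and 9.06 and 8.92 on the siCON arrays, a difference from siCON of -0.70. RASSF5, which binds the MST kinases of the Hippo pathway, was 0.22 below every other array, with a difference of -0.37. RASSF2 was at 7.55, a difference of -0.71, but 1 other knockdown array was as low, with 7.47. RASSF1, the best-known tumor suppressor of the family, was at 7.96, which was 0.07 above every other array and 0.39 above the siCON mean. The N-terminal members RASSF7 (0.28) and RASSF9 (0.53, at the low level of 4.33) stayed within the range of the other arrays.

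**Figure D1:**
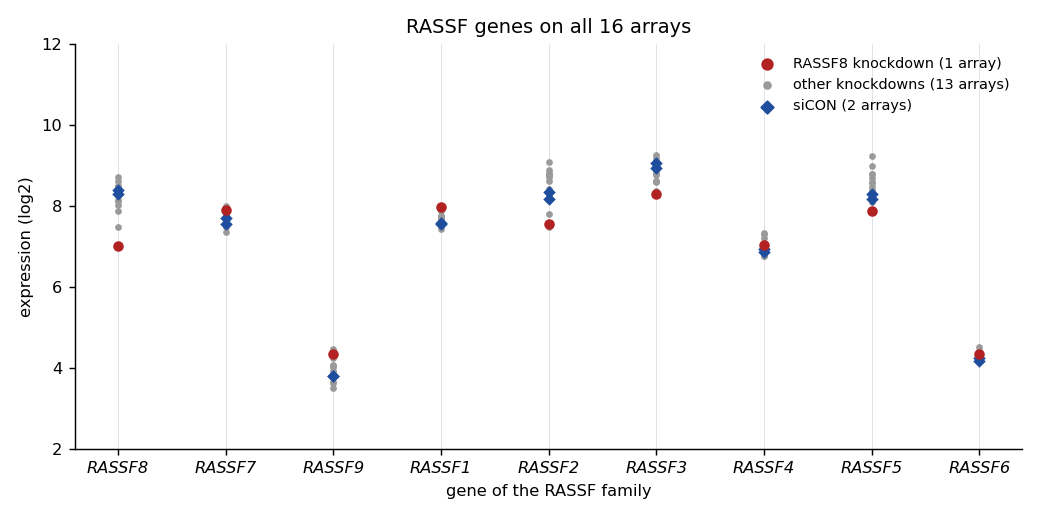
Log2 expression of the 9 measured RASSF genes on the RASSF8 knockdown array (red), the other 13 knockdown arrays (grey) and the 2 siCON arrays (blue diamonds). RASSF8 stands 0.47 below the lowest of the other arrays, while RASSF7, RASSF9, RASSF2, RASSF4 and RASSF6 lie inside their ranges.

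Among the 3 nearest measured genes on each side of RASSF8 on chromosome 12, only ETFRF1 was past a difference of 1. ETFRF1, a regulator of the electron transfer flavoprotein, was at 8.01 on the RASSF8 array, against 8.01, 9.07 and 9.59 on the other knockdown arrays and 9.11 on both siCON arrays. The lowest of the other arrays was that of the IGF2R knockdown, which was as low, so this decrease of -1.10 was not private to the RASSF8 array. The remaining neighbors, DNAI7, LMNTD1, BHLHE41, SSPN and INTS13, differed from siCON by -0.31 to 0.24 and lay within the range of the other arrays.

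The RASSF8 array had many more large decreases than large increases. At a log2 difference of 1, the study's threshold (2-fold), 627 clusters (2.85%) were lower and 160 (0.727%) were higher than the siCON mean. Only the IGF2R array had more decreases, 856, and the other knockdown arrays ranged from 113 with a median of 252. For increases the RASSF8 array was the fifth highest of 14, the others ranging from 69 to 271 with a median of 126. At a difference of 0.5 the order turned, with 2646 clusters (12%) lower and 2904 (13.2%) higher, and the median over all clusters was 0.11. The spread of values on the array was narrow, with an SD of 2.19 against 2.16 to 2.27 on the other knockdown arrays and 2.27 and 2.26 on the siCON arrays, and its lower quartile was high, 6.35 against 6.15 and 6.17 on the siCON arrays. With the trend of each array on mean level removed, 849 clusters were lower and 125 higher by 1 or more.

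These differences were partly shared with other knockdown arrays. Of the 627 lower clusters, 311 (49.6%) lay below all 15 other arrays and 316 within the range of the other arrays, and of the 160 higher ones 85 (53.1%) lay above all 15. A further 52 lower and 10 higher clusters were beyond every array but that of the IGF2R knockdown. Measured against the mean of the other 13 knockdown arrays in place of siCON, 147 clusters were lower and 27 higher by 1 or more. In 53 clusters (0.241%) the RASSF8 array was higher than siCON while all 13 other knockdown arrays were lower, and in 41 (0.186%) it was lower while all 13 were higher, and 0 of the 155 genes of the naming rule were among them.

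Over all clusters, 1466 (6.66%) on the RASSF8 array lay below every other array and 1634 (7.42%) above. With the margin of 0.5, 82 clusters (0.373%) remained below and 14 (0.0636%) above. Of the 14 knockdown arrays only that of IGF2R had more clusters below by the margin, 192, and the other arrays had a median of 31. Above by the margin the array was the tenth highest, and the ZNF431 array had the most, 96. The siCON arrays had 10 and 9 clusters below and 19 and 17 above. Decreases made up 85.4% of the private clusters of the RASSF8 array, against 28.4% on the ZNF431 array, 84.2% on the IGF2R array and 90.9% of the few on the ZNF708 array.

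**Figure D2:**
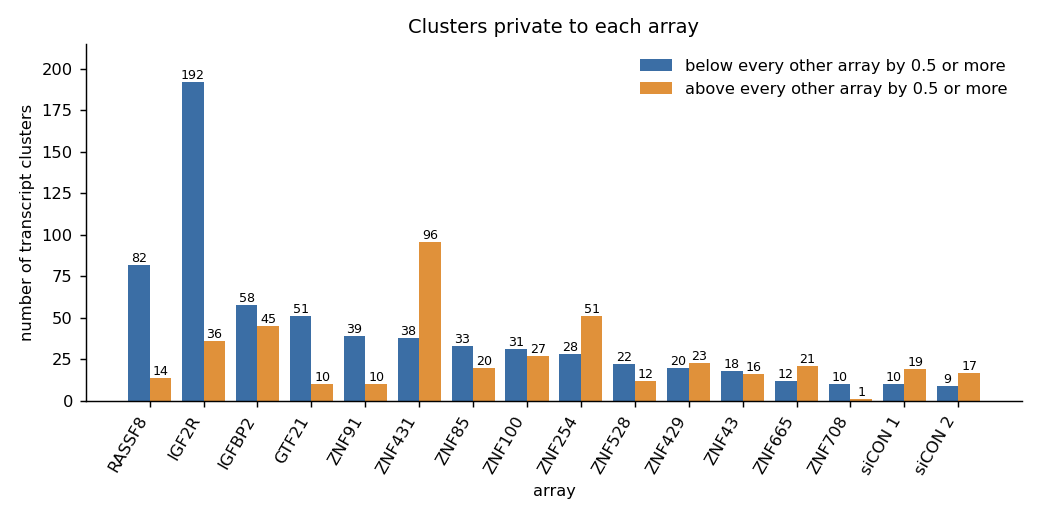
Number of transcript clusters that lie below (blue) or above (orange) all 15 other arrays by 0.5 or more, for each of the 16 arrays. The RASSF8 array, at the left, has 82 below and 14 above, the IGF2R array 192 and 36, and the siCON arrays at the right 10 and 9 below with 19 and 17 above.

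The 82 low clusters were brighter than clusters at large. Their median level over all arrays was 9.45, against 7.79 for all clusters, and 49 of them (59.8%) had a mean level over 9, against 30.2% of all clusters. All 82 were lower than both siCON arrays by the rule that chose them, since that range includes the siCON arrays. Their median difference from siCON was -1.23. The next lowest array was that of IGF2R for 22, of GTF21 for 11, of ZNF85 for 11 and of ZNF43 for 9. The 14 high clusters were dimmer, with a median level of 7.19 and a median difference of 1.03, and no array was the next highest for more than 2 of them. Without the IGF2R array in the range the counts were 126 below and 22 above, and with the trend on mean level removed 9 clusters lay above by the margin. Just inside the margin were MORN2 (0.50) and MRPL35 (0.51), and just outside it PRTFDC1 and PITPNB, both 0.49 below the other arrays.

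The gene farthest below all other arrays was VAMP3, a SNARE protein of recycling endosomes. It was at 8.88 on the RASSF8 array, against 10.27, 10.80 and 11.14 on the other knockdown arrays and 10.72 and 10.59 on the siCON arrays. The gap to the nearest array was 1.39 and the difference from siCON -1.77. VAMP3 was named for this gap, and the 13 other knockdowns left it on both sides of the siCON level.

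PIGM and REEP5 followed, both 0.88 below the nearest array. PIGM, the first mannosyltransferase of GPI anchor synthesis, was at 8.34 on the RASSF8 array, against 9.22, 9.71 and 10.15 on the other knockdown arrays and 9.75 and 9.59 on the siCON arrays. REEP5, which shapes the tubules of the endoplasmic reticulum (ER), was at 9.37, against 10.25, 10.82 and 11.33 and against 10.65 and 10.55 on the siCON arrays. That no other array came as low for PIGM or REEP5 follows from the rule that named them. BLOC1S2, a subunit of a complex that builds lysosome-related organelles, was lower than siCON by a log2 difference of -1.15 and lay 0.71 below the nearest array. ATG14, which directs the lipid kinase complex that starts autophagy, was at 7.25, against 7.94, 8.07 and 8.35 and against 8.31 and 8.35 on the siCON arrays. F2R, the thrombin receptor PAR1, was at 7.55, against 8.25, 8.95 and 9.60 and against 9.21 and 9.45 on the siCON arrays, a difference of -1.77. For ATG14 and F2R the gap was 0.69 and 0.70.

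Others of the 15 were SMURF2, ZYG11B and ACP1. SMURF2, a ubiquitin ligase of the TGF-beta and BMP pathways, was at 9.99 on the RASSF8 array, against 10.74, 11.07 and 11.26 on the other knockdown arrays and 11.41 and 11.59 on the siCON arrays. Its difference from siCON was -1.51, and the gap of 0.75 came on top of lower values on all 13 other knockdown arrays. ZYG11B, a substrate receptor of a cullin ubiquitin ligase, was at 7.86, against 8.69, 9.54 and 9.88 and against 9.69 and 9.76 on the siCON arrays. This was a difference of -1.86 with a gap of 0.83. ACP1, a small protein tyrosine phosphatase, was at 10.25, against 11.10, 11.38 and 11.57 and against 11.5 and 11.45 on the siCON arrays, a gap of 0.85. All 3 were bright genes, with siCON levels over 9.

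The rest of the 15 held XRCC4, SUDS3, STAU1 and CCNI. XRCC4, the partner of DNA ligase IV in end joining, was at 6.69 on the RASSF8 array, against 7.51, 7.91 and 8.28 on the other knockdown arrays and 8.28 and 8.02 on the siCON arrays. SUDS3, a subunit of the SIN3 histone deacetylase complex, was at 8.21, against 8.95, 9.40 and 9.69 and against 9.67 and 9.68 on the siCON arrays. The difference from siCON was -1.46 for each of them. STAU1, which binds double-stranded RNA and takes part in mRNA transport and decay, was lower than siCON by a log2 difference of -1.17, with a gap of 0.71. CCNI, a cyclin that does not oscillate in the cell cycle, was at 11.32, against 12.01, 12.19 and 12.33 and against 12.34 and 12.28 on the siCON arrays, a gap of 0.69. The last 2 of the 15, RWDD1 and CFAP97, had gaps of 0.74 and 0.68. Of the 15 genes, 13 had a siCON mean over 9. The cluster with the largest gap of all, 2.01, was shared by ANKRD36, ANKRD36B and ANKRD36C and cannot be given to 1 gene. It was at 3.25 on the RASSF8 array, among the lowest values of the array, against 6.81 and 6.94 on the siCON arrays.

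**Figure D3:**
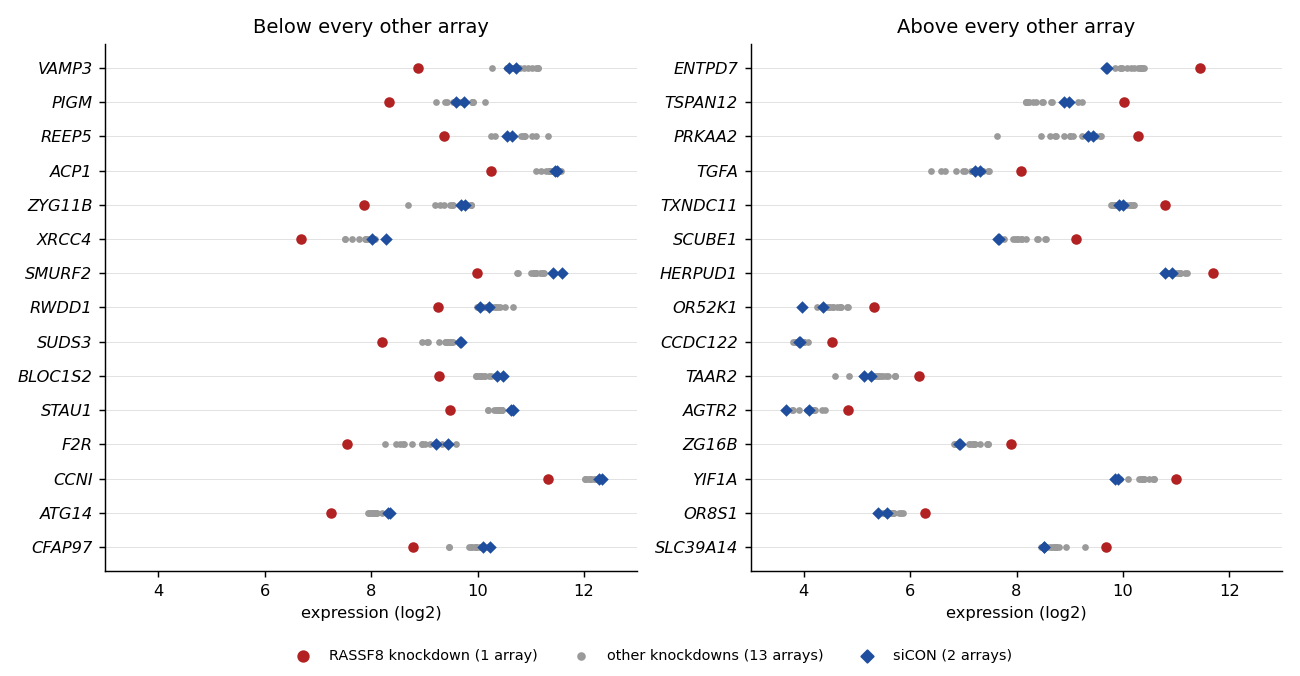
Log2 expression of the 15 genes farthest below (left) and the 15 farthest above (right) all other arrays, with the RASSF8 knockdown array in red, the other 13 knockdown arrays in grey and the 2 siCON arrays as blue diamonds. The gap runs from 1.39 (VAMP3) to 0.68 (CFAP97) on the left and from 1.06 (ENTPD7) to 0.40 (SLC39A14) on the right, where 5 genes are at low levels.

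The gene farthest above all other arrays was ENTPD7, an intracellular nucleotide phosphatase. It was at 11.44 on the RASSF8 array, against 9.85, 10.21 and 10.39 on the other knockdown arrays and 9.69 and 9.70 on the siCON arrays. The gap was 1.06 and the difference from siCON 1.75. TSPAN12, a tetraspanin that strengthens signaling by the receptor FZD4, was at 10.02, against 8.17, 8.36 and 9.23 and against 8.90 and 8.99 on the siCON arrays. PRKAA2, a catalytic subunit of the energy sensor AMPK, was at 10.29, against 7.63, 9.0 and 9.59 and against 9.35 and 9.44 on the siCON arrays. For both of these genes the median of the other knockdown arrays was below the siCON arrays, while the RASSF8 array was above them.

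TGFA, SCUBE1 and TXNDC11 came next. TGFA, a ligand of the EGF receptor, was at 8.08 on the RASSF8 array, against 6.39, 7.14 and 7.49 on the other knockdown arrays and 7.31 and 7.22 on the siCON arrays. SCUBE1, a secreted and cell-surface glycoprotein, was at 9.12, against 7.66, 8.08 and 8.55 and against 7.65 and 7.68 on the siCON arrays, a difference of 1.45. TXNDC11, a thioredoxin-like protein of the ER, was at 10.80, against 9.77, 9.99 and 10.21 and against 10.00 and 9.92 on the siCON arrays. Each of the 3 was above the other arrays by the margin of 0.5. HERPUD1, just short of it, YIF1A, a membrane protein of ER to Golgi transport (11.01 against 9.85 and 9.91 on the siCON arrays), and the zinc transporter SLC39A14 (9.68 against 8.52 on both siCON arrays) were 0.50, 0.41 and 0.40 above the nearest array. ZG16B was at 7.89, with a gap of 0.42. The other 5 genes of the 15, OR52K1, CCDC122, TAAR2, AGTR2 and OR8S1, lay under the lower quartile of the array.

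The largest differences from siCON were in part shared with the other knockdowns. POSTN, a matrix protein that TGF-beta induces, had the largest decrease, -2.88, with 7.26 on the RASSF8 array, against 7.24, 7.88 and 8.71 on the other knockdown arrays and 9.64 and 10.64 on the siCON arrays. The siCON arrays themselves were 1 log2 unit apart for POSTN, and the RASSF8 array was no lower than the lowest of the others. KBTBD8, a substrate adaptor of a cullin ubiquitin ligase, was lower on every knockdown array but lowest here, with 6.89 against 7.51, 7.90 and 8.30 and against 9.26 and 9.08 on the siCON arrays. USP46, a deubiquitinase, was at 8.90, against 9.47, 10.24 and 10.69 and against 10.86 and 10.79 on the siCON arrays. KBTBD8 and USP46 were 0.61 and 0.57 below the nearest array, the IGF2R array in the case of USP46. API5, an inhibitor of apoptosis, was at 10.18 against 12.05 and 12.08 on the siCON arrays, a difference of -1.89 with a gap of 0.25. Of the 10 genes with the largest decrease, 7 lay below all other arrays, beside 49.6% of all clusters lower by 1 or more. Genes picked for the largest change on this array are more likely to lie beyond the others.

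Among the 10 largest increases, picked in the same way, 7 lay above all other arrays, beside 53.1% of all clusters higher by 1 or more. PLPP3, a phosphatase of lysophosphatidic acid and related lipids, was at 11.17 on the RASSF8 array, against 9.97, 10.23 and 10.78 on the other knockdown arrays and 9.35 and 9.13 on the siCON arrays, a difference of 1.93 with a gap of 0.39. KDELR3, a receptor that returns proteins to the ER, was at 10.96, against 9.06, 10.28 and 10.69 and against 9.54 and 9.35 on the siCON arrays. GOLT1B, a Golgi transport protein, was at 10.59, against 8.74, 9.54 and 10.43 and against 8.90 and 8.91 on the siCON arrays. The gap was small for both, 0.26 and 0.16. PAPSS2, which makes the sulfate donor PAPS, was higher than siCON by 1.89 and RASL11A, a Ras-like protein, by 1.62, with gaps of 0.10 and 0.12. The muscarinic receptor CHRM2 had the largest difference, 2.04, at the low level of 5.76 and within the range of the other knockdown arrays.

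The unfolded protein response was the list with the most members above all other arrays. The response is set off by misfolded proteins in the ER, where IRE1, PERK and ATF6 sense them, and it works through the transcription factors XBP1, ATF4 and ATF6, which induce chaperones and degradation factors. Of 26 measured genes of a list of its targets and those of ATF4, 10 were higher than siCON by 0.5 or more and 0 were lower by as much, and 9 lay above all 15 other arrays and 0 below. The median difference was 0.31, against 0.11 over all clusters, and was the highest of the 14 knockdown arrays, the others lying between -0.10 and 0.22. No set test was run, and the counts stand beside 7.42% of all clusters above the other arrays and 13.2% higher by 0.5 or more. Under the other scalings of the arrays 7 to 10 of the 26 lay above all other arrays.

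HERPUD1, an ER membrane protein of the degradation pathway, was at 11.70 on the RASSF8 array, against 10.77, 11.002 and 11.20 on the other knockdown arrays and 10.80 and 10.93 on the siCON arrays. XBP1, the transcription factor of the IRE1 branch, was at 10.76, against 10.01, 10.27 and 10.47 and against 10.01 and 9.92 on the siCON arrays. CRELD2, an ER protein that is secreted under stress, was at 8.89, against 8.08, 8.31 and 8.68 and against 8.09 and 8.12 on the siCON arrays. These 3 had the widest gaps of the list, 0.50, 0.29 and 0.21. The ER proteins SDF2L1 (a difference of 0.76 from siCON), MANF (0.61) and PDIA6 (0.54) were above the nearest array by 0.05, 0.05 and 0.07, and DNAJC3, SESN2 and VLDLR by 0.03 or less. Gaps of that size lie inside the spread of the siCON arrays. The chaperone HSPA5, the most used marker of the response, was at 12.99, against 12.65, 12.91 and 13.06 and against 12.60 and 12.46 on the siCON arrays, within the range of the other knockdowns. Genes of the PERK and ATF4 branch were divided, with ATF4 (0.62) and DDIT4 (0.76) higher than siCON and DDIT3 (-0.28) and TRIB3 (-0.15) a little lower, and the ER factors EDEM1 and DNAJB9 differed by -0.32 and -0.25.

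**Figure D4:**
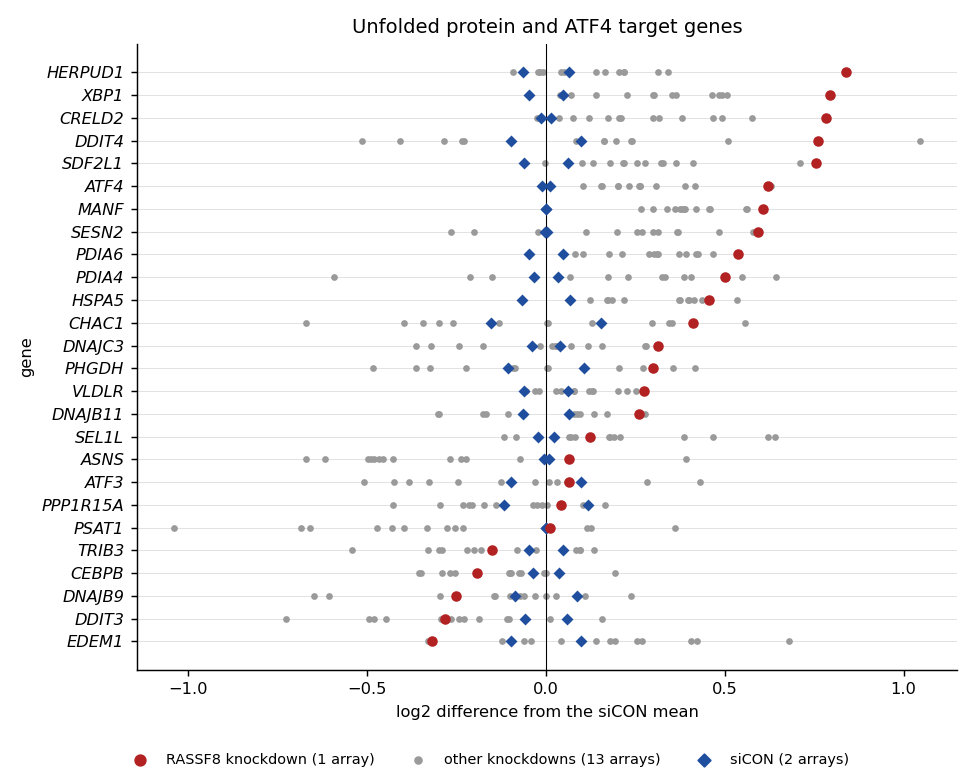
Log2 difference from the siCON mean of the 26 measured unfolded protein and ATF4 target genes, on the RASSF8 knockdown array (red), the other 13 knockdown arrays (grey) and the 2 siCON arrays (blue diamonds). The RASSF8 array is at the right edge for HERPUD1 (0.84), XBP1 (0.79) and CRELD2 (0.78) and at or near the left edge for EDEM1 (-0.32).

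The promoters of these genes were searched for the letters of 3 response elements, because they tie the list to its known factors. ERSE (CCAAT, 9 bases of any kind, then CCACG) and ERSE-II (ATTGG, 1 base of any kind, then CCACG) are bound by ATF6 and XBP1 with the factor NF-Y, and the core of the UPRE (TGACGTGG) by XBP1. In RefSeq promoters (GRCh38.p14, 250 bases before to 50 after each start, both strands, 35116 promoters) ERSE was in 27 (0.0769%), ERSE-II in 19 (0.0541%) and the UPRE core in 256 (0.729%), and any of them in 301 (0.857%). The 3 share the letters CCACG on one strand, and 1 promoter held more than 1 of them. Of the 9 list genes above all other arrays 5 held such a match, HERPUD1, XBP1, CRELD2, SDF2L1 and PDIA6, and of the other 17 list genes 1, HSPA5. Among the 15 genes farthest above all arrays 2 of 12 with a promoter held one (HERPUD1 and TXNDC11), and among the 15 farthest below 0 of 14. The list pools known targets of ATF6 and XBP1 with targets of ATF4, and the 9 were picked by their values on this array. The 5 of 9 and 1 of 17 therefore describe the list and are no evidence on these factors. A match is a description of the letters and was not tested as a site. The 250 bases before the start are given here for these 6 genes, 5′ to 3′ on the strand of the gene, with the match in capitals, which is read on the other strand in CRELD2 and SDF2L1. They are chr16:56931892-56932141 (plus strand) for HERPUD1, chr22:28800570-28800819 (minus) for XBP1, chr22:49918384-49918633 (plus) for CRELD2, chr22:21642052-21642301 (plus) for SDF2L1, chr2:10812786-10813035 (minus) for PDIA6 and chr9:125241344-125241593 (minus) for HSPA5. XBP1 and PDIA6 each have a further listed start whose promoter does not hold the letters.
HERPUD1: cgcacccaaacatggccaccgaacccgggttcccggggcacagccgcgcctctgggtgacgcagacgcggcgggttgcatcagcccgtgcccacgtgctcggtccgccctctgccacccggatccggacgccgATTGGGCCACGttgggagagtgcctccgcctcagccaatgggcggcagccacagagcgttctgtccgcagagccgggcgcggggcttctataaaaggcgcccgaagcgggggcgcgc
XBP1: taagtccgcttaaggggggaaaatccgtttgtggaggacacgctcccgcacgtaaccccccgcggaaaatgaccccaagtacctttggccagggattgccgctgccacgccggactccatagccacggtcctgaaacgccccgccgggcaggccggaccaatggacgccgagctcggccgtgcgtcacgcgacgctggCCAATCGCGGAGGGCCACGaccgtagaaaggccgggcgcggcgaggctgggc
CRELD2: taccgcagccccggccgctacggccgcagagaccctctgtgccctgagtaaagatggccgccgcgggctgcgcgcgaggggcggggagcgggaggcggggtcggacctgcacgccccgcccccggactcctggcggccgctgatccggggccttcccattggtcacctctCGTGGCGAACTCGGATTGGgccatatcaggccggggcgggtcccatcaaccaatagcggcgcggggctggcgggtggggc
SDF2L1: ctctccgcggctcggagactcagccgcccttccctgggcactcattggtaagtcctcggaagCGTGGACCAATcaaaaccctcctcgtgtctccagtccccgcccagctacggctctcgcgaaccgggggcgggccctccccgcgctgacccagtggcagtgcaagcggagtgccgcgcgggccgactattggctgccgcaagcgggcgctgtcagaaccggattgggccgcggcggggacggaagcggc
PDIA6: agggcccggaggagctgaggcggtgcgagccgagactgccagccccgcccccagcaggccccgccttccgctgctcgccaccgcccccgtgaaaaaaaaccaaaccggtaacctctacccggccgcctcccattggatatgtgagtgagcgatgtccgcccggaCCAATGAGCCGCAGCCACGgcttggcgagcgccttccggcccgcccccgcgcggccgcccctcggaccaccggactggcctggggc
HSPA5: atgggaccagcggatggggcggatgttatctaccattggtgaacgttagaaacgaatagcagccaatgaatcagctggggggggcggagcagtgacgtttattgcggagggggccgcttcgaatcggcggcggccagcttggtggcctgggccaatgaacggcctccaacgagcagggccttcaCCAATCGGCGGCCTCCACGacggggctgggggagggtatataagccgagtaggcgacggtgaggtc

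The match was ERSE in XBP1, CRELD2, PDIA6 and HSPA5 and ERSE-II in HERPUD1 and SDF2L1. Counted from the start, it lay at positions -52 to -34 in XBP1, -80 to -62 in CRELD2, -86 to -68 in PDIA6, -66 to -48 in HSPA5, -117 to -107 in HERPUD1 and -188 to -178 in SDF2L1. HSPA5 thus carried the element without lying above the other arrays, and MANF and DNAJC3 lay above them without it in this window.

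Of 18 measured genes of the ASPP, Src and Par3 group, 2 were lower than siCON by 0.5 or more and 0 higher, beside 12% and 13.2% of all clusters, and the median difference was -0.15, against -0.16 to 0.15 on the other knockdown arrays. PPP1CB, a catalytic subunit of protein phosphatase 1, was at 10.40 on the RASSF8 array, against 11.07, 11.51 and 11.84 on the other knockdown arrays and 11.66 and 11.62 on the siCON arrays, a difference of -1.24 with a gap of 0.67. The other catalytic subunits, PPP1CA (-0.02) and PPP1CC (-0.40), stayed within the range. PARD6B, a polarity scaffold, was lower than siCON by -0.72, within the range of the other knockdown arrays. The ASPP genes PPP1R13B (-0.29), TP53BP2 (-0.23) and PPP1R13L (0.48), the kinase SRC (0.29) and its inhibitor CSK (-0.03) were all inside the range as well.

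CTNNA1 encodes alpha-catenin, which links cadherin and beta-catenin to actin. It was at 9.94 on the RASSF8 array, against 10.56, 10.63 and 10.84 on the other knockdown arrays and 10.91 and 10.96 on the siCON arrays, a difference of -1.0 with a gap of 0.62. The range of the other 13 knockdown arrays was narrow for this gene. ACTN1, alpha-actinin, was 0.16 below every other array with a difference of -0.50. Of the 24 measured adherens junction genes 1 was lower and 1 higher by 0.5 or more, beside 12% and 13.2% of all clusters. The higher one was the cadherin CDH11 (0.53), and the median of 0.10 was near that of all clusters. CDH11 was at 10.99 on the RASSF8 array, against 10.86, 11.68 and 11.98 on the other knockdown arrays. It was thus higher than siCON but low among the knockdown arrays. The 17 measured tight junction genes had a median of 0.41, against -0.11 to 0.55 on the other knockdown arrays. With the trend on mean level removed it was 0.20. By 0.5 or more, 2 were lower and 4 higher, beside the same shares. Of the 17, 1 lay below every other array and 1 above, beside 6.66% and 7.42% of all clusters. The lower was the scaffold MPDZ, at 8.10, against 8.41, 8.78 and 9.10 and against 8.96 and 8.95 on the siCON arrays. The higher was CLDN11, a claudin, 0.03 above every other array.

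Genes of the Hippo pathway lay below every other array in 6 of 29 cases and above it in 4, where 6.66% and 7.42% of all clusters did. By 0.5 or more, 7 were lower and 2 higher than siCON, beside 12% and 13.2% of all clusters, and under the other scalings of the arrays 7 to 11 were lower and 0 to 2 higher. Hippo kinases phosphorylate the coactivators YAP and TAZ and keep them out of the nucleus. WWTR1, which encodes TAZ, was at 10.87 on the RASSF8 array, against 11.17, 11.67 and 12.02 on the other knockdown arrays and 11.92 and 11.95 on the siCON arrays. The kinase STK3 (-0.88) and the kinase adaptor MOB1A (-0.66) were also below every other array, by 0.17 and 0.40, as were AMOT (-0.50), NF2 (-0.38) and the target FJX1 (-1.12). The target CCN2, also induced by TGF-beta, was at 7.75 against 9.18 and 8.86 on the siCON arrays, but other knockdown arrays went as low as 7.35. The 4 above every other array were YAP1 (a difference of 0.14), the kinase scaffold SAV1 (0.32), AXL (0.58) and TGFB2 (0.30), each by 0.04 or less. The targets CCN1 and ANKRD1 differed from siCON by -0.46 and 0.61, and the median of the list was -0.16, against -0.16 to 0.11 on the other knockdown arrays.

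In the TGF-beta list, BMPR2, TGFBR1 and SKIL lay farthest below the other arrays. BMPR2, the type II BMP receptor, was at 10.10 on the RASSF8 array, against 10.61, 10.85 and 11.24 on the other knockdown arrays and 10.999 and 10.82 on the siCON arrays, 0.51 below the nearest array. TGFBR1, the type I TGF-beta receptor, was at 8.61, against 9.09, 9.74 and 10.14 and against 9.48 and 9.53 on the siCON arrays. SKIL, a repressor of SMAD activity, was at 9.18, against 9.57, 10.24 and 10.70 and against 10.30 and 10.11 on the siCON arrays. For these 3 genes the other knockdown arrays lay on both sides of siCON. TGFBR2, the type II receptor (0.69), and BAMBI, a decoy receptor (1.33), were higher than siCON, within the range of the other knockdowns. Of the 34 measured genes 8 were lower and 3 higher by 0.5 or more, beside 12% and 13.2% of all clusters, and 5 lay below and 4 above every other array, beside 6.66% and 7.42%.

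Cell cycle genes were lower on the RASSF8 array, and this was shared by most knockdown arrays. Of 56 measured checkpoint, kinetochore and spindle genes, 43 were lower than siCON by 0.5 or more and 0 higher, with a median difference of -0.88. Of all clusters, 12% were lower and 13.2% higher by as much. The other knockdown arrays had medians from -1.22 (IGFBP2) to -0.01 (ZNF43), and the RASSF8 array was the third lowest of 14. In bulk RNA, fewer dividing cells and less of these transcripts per cell cannot be told apart. CDK1, the kinase that drives mitosis, was at 8.84 on the RASSF8 array, against 8.84, 9.66 and 10.22 on the other knockdown arrays and 10.53 and 10.33 on the siCON arrays. TTK, a spindle checkpoint kinase, was at 7.83 against 9.51 and 9.28 on the siCON arrays and was the 1 gene of this list below every other array, by 0.11. The siCON arrays differed from each other for many of these genes, with the one labelled 72 h lower, as for CENPE with 9.84 and 9.36 against 8.11 on the RASSF8 array. DNA replication genes had a median of -0.41, with 18 of 42 lower and 0 higher by 0.5 or more, and core histones a median of -0.62, with 14 of 24 lower and 0 higher. These counts stand beside the same 12% and 13.2% of all clusters. Of the histone genes 5 lay below every other array and 1 above, beside 6.66% and 7.42% of all clusters. Probes of histone genes may be shared among near-identical copies.

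CCND1 was higher on the RASSF8 array than on any other. This gene of cyclin D1, which drives entry into the cell cycle and is a target of Wnt and ERK signaling, was at 11.83 on the RASSF8 array, against 9.80, 11.10 and 11.43 on the other knockdown arrays and 11.07 and 11.22 on the siCON arrays, 0.39 above the nearest array. CDKN1B, which encodes the inhibitor p27, was also above every other array, by 0.14, with a difference of 0.25. The S-phase genes E2F8 (-1.54) and CCNE2 (-1.29) and SKP2 (-0.88), which marks p27 for degradation, were lower than siCON, and SKP2 was 0.09 below every other array. E2F8 and CCNE2 were within the range of the other knockdown arrays, whose means differed from siCON by -1.10 and -0.89. Of 25 measured G1 genes 8 were lower and 1 higher by 0.5 or more, beside 12% and 13.2% of all clusters. Below every other array lay 2 of the 25 and above it 2, beside 6.66% and 7.42%.

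**Figure D5:**
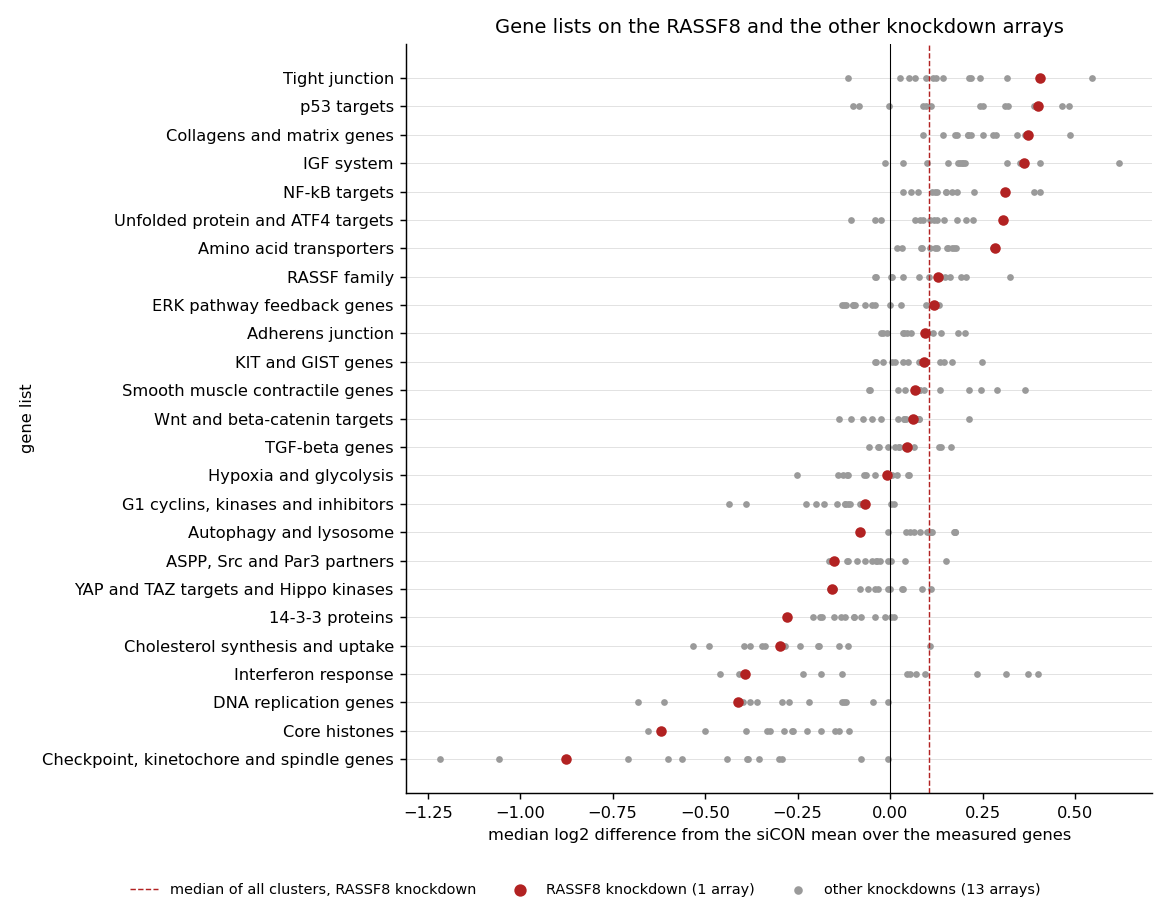
Median log2 difference from the siCON mean over the measured genes of 25 lists, on the RASSF8 knockdown array (red) and on each of the other 13 knockdown arrays (grey), with the median of all clusters on the RASSF8 array as a dashed line. The checkpoint, kinetochore and spindle list is lowest with -0.88, inside the range of the other knockdowns, and the unfolded protein list with 0.31 lies at the upper end of its own.

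The remaining lists mostly lay inside the range of the other knockdown arrays. Interferon response genes had a median of -0.39, with 9 of 29 lower and 0 higher by 0.5 or more, while the other arrays ran from -0.46 (IGF2R) to 0.40 (GTF21). Against a single siCON array its median was -0.14 or -0.62. IFIT1, an antiviral RNA-binding protein, was at 7.71 on the RASSF8 array, against 7.90, 8.61 and 9.09 on the other knockdown arrays and 9.25 and 9.04 on the siCON arrays. Collagens and matrix genes had a median of 0.37, with 14 of 39 higher and 3 lower by 0.5 or more, p53 targets 0.40 with 8 of 21 higher and 1 lower, and NF-kB targets 0.31 with 6 of 24 higher and 0 lower. These counts and those of the interferon list stand beside 12% of all clusters lower and 13.2% higher by 0.5 or more. Under the other scalings the higher genes numbered 7 to 9 of the 39 collagen and matrix genes and 6 to 8 of the 21 p53 targets. For NF-kB they were only 2 to 3 of 24. Amino acid transporters had a median of 0.28, with 6 of 26 above every other array and 0 below, where 7.42% and 6.66% of all clusters were. With the trend on mean level removed the median was 0.08, and 6 were still above. SLC6A9, a glycine transporter, was the largest of these, at 9.80 against 8.61 and 8.66 on the siCON arrays, with another knockdown array at 9.74. Autophagy and lysosome genes had a median of -0.08, and the other 13 knockdown arrays had medians from -0.01 to 0.18, but the sign turned under quantile normalization (0.02) and with the trend on mean level removed (0.01). Of the 21 autophagy and lysosome genes 5 lay below every other array and 2 above, beside 6.66% and 7.42% of all clusters. ATG14 lay farthest below, by 0.69. YWHAG, a 14-3-3 protein, was at 11.13, against 11.40, 11.68 and 11.89 and against 11.86 and 11.91 on the siCON arrays.

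Most genes that mark GIST were at high levels. KIT was at 13.25 on the RASSF8 array, against 13.35 as the siCON mean, and ANO1 at 12.81 against 12.92. Of 7 measured GIST markers 5 lay over the upper quartile of the array and 0 under its median, while the 3 leukocyte, 3 endothelial, 2 neuronal and 2 melanocyte markers measured all lay under the median. Of the smooth muscle markers 3 of 4 were under it, and of 5 epithelial markers 2, the keratins KRT8 (11.63, against a siCON mean of 11.04) and KRT18 (10.03, against 10.38), lay over the upper quartile. KCNK3, a potassium channel of GIST, was higher than siCON by 1.23 and KITLG, the ligand of KIT, by 0.76, both within the range of the other knockdown arrays. GPR20, a receptor of GIST, was at 9.76, which was 0.12 below every other array and -0.46 from siCON, and the transcription factor BARX1 differed from siCON by -0.76, within the range.

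The genes that the study had picked from these same arrays as changed in every knockdown differed in the same direction on the RASSF8 array, which is no independent evidence. TGFB3, a TGF-beta ligand, was at 7.70 on the RASSF8 array, against 7.25, 7.79 and 8.41 on the other knockdown arrays and 9.27 and 9.68 on the siCON arrays. NEDD9, a scaffold of focal adhesion signaling, was at 7.99, against 7.73, 8.67 and 9.02 and against 9.43 and 9.45 on the siCON arrays. TMCO1, an ER calcium channel, was at 11.57, against 11.12, 11.46 and 11.77 and against 10.23 and 9.99 on the siCON arrays. ENPP5 (-1.94), SI (-1.62, at the low level of 4.26), DDAH1 (-1.16) and the cluster that names MRPL30 alone (-0.85) were lower than siCON. That MRPL30 cluster was not lower in every knockdown, which is unlike what the study reports for MRPL30. The other knockdown arrays had 9.40, 9.95 and 10.39, and the siCON arrays 10.33 and 10.24. Each of these genes was inside the range of the other 13 knockdown arrays, so none was private to the RASSF8 array.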

How the data were processed

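RNA of 16 GIST T1 samples was hybridized to Affymetrix Human Exon 1.0 ST arrays. The authors used the oligo package for RMA normalization, summarized the core probes to the gene level and deposited log2 expression estimates. The submitters' processing notes name the build hg19, and versions are not given in the sources used here. RMA sets all arrays to 1 distribution of probe values before summarization, so a shift of all genes together cannot be seen, and log2 differences of dim or very bright genes are compressed. Values were used as deposited for 22011 transcript clusters, of which 14432 carry 1 symbol, 2408 several and 5171 none, and 0 columns were left unmapped. A gene (14232 in all) had the value of its cluster with 1 symbol, the one with the highest mean where there were several. The number of arrays limits the precision, since each knockdown is 1 array.

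The RASSF8 array was set against the siCON mean, at a log2 difference of 1, and with the range of the other 15 arrays, at a margin of 0.5. Lists were described at a difference of 0.5 by their counts and medians. The only test was an exact two-sided permutation of RASSF8 itself over the 16 arrays. Counting beyond the range was run on simulated independent noise with known changes added to 1 array. That noise held no array-wide shift or narrower spread, so it cannot say how many private clusters such differences give. Alternatives were centered, SD-scaled and quantile-normalized arrays, removal of the trend on mean level (loess, span 0.3), each siCON array alone, the mean of the other 13 knockdown arrays as reference, the brightest 2 in 3 clusters, the range without the IGF2R array, other margins and thresholds, and averaging the clusters of each gene.

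Named are RASSF8, the 15 genes farthest below and the 15 farthest above the other arrays, the 10 largest decreases and increases, members of each list beyond the margin (at most 4) and the 2 with the largest difference in each direction, the genes the study singled out, and 3 neighbors on each side of RASSF8. Other genes were named after their values were seen. The array, the lists and the rules were chosen with earlier results of these data known. Promoters came from RefSeq (GRCh38.p14), which was also used for gene order. Scripts ran in Python 3.11.15 with statsmodels 0.14.6, matplotlib 3.10.9, scipy 1.17.1, pandas 2.3.3 and numpy 2.4.6. Quantitative PCR, the drug screen and siRNA sequences were not analysed here.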

Additional observations from a re-analysis of the deposited data

How the results depend on the processing

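RASSF8 stayed below every other array under each scaling, with a difference from siCON of -1.44 to -1.40 and a gap of 0.51 to 0.61. Against a single siCON array the difference was -1.39 and -1.30, with 577 and 786 clusters lower, 190 and 225 higher, 82 and 83 below and 14 and 14 above the other arrays by the margin. Removing the trend on mean level left 9 clusters above by the margin. With the mean of the other 13 knockdown arrays as the reference, 147 clusters were lower and 27 higher. In the 14674 brightest clusters 392 were lower, 89 higher and 8 above by the margin. Without the IGF2R array in the range, 126 lay below and 22 above. A margin of 0.3 gave 267 below and 78 above, and a margin of 1 gave 4 and 1. A threshold of 0.5 gave 2646 lower and 2904 higher, and 1.5 gave 108 and 17. Under at least 1 scaling the median changed sign for the RASSF family (0.13, lowest -0.13), TGF-beta (0.05, lowest -0.06), Wnt (0.06, lowest -0.05), autophagy (-0.08, highest 0.02) and hypoxia (-0.01, highest 0.01) lists. With the other knockdown arrays as the reference the direction turned for the medians of the collagen list (-0.0128) and the 14-3-3 list (0.0639). Lists with medians near 0 were not counted in this. Of the named genes that differed from siCON by 1 or more, ENPP5 (0.00757) and DDAH1 (0.50) turned. Some named genes with smaller differences turned as well, such as CDH11 (0.53 to -0.62) and PATJ (-0.83 to 0.27). All 82 clusters below and all 14 above by the margin stayed beyond every other array under each scaling. No paired analysis was possible because each knockdown is 1 array. With 1 array, differences cannot be told apart from those of that transfection, RNA sample or hybridization.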
